A study of Mus musculus with 3 samples.

Results

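This section describes 10 genes through which enteric neurons signal, Slc18a3, Chat, Tac1, Grp, Penk, Nos1, Vip, Gal, Cartpt and Npy, in single cells of the E18.5 mouse hindstomach, the glandular stomach. The genes were chosen by name, and all 10 had a row in each of the 3 libraries, out of 46675 gene symbols. They were read in neuron-like cells, defined as cells with a unique molecular identifier (UMI) of at least 4 of 6 neuronal genes, Elavl4, Stmn2, Gap43, Uchl1, Snap25 and Tubb3. In all, 1233 of 20367 cells that passed the quality filters met that rule. The libraries were Shh-Cre;YAP5SA (called YAP5SA here), Shh-Cre;YaploxP/loxP (called Yap knockout) and Shh-Cre alone (control). All 3 genotypes carried Shh-Cre, a recombinase that acts in the stomach epithelium and not, as far as is known, in enteric neurons. YAP5SA is a form of the transcriptional coactivator YAP that escapes inhibitory phosphorylation, and the loxP alleles allow Yap to be deleted. Tissue was dissociated with trypsin and DNase, and droplets tagged the 3′ end of each transcript. Each genotype had 1 library, and the sources used here do not give its number of embryos. Differences between genotypes therefore have no replicates behind them, and the intervals given with them, all at 95%, cover counting error only.

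Enteric neurons form ganglia in the gut wall and drive its muscle, vessels and glands. Excitatory motor neurons release acetylcholine together with tachykinins, and inhibitory motor neurons release nitric oxide together with vasoactive intestinal peptide, so the enzymes, transporters and peptide precursors named above are the usual labels for the neuron types. Opioid peptides, galanin and gastrin-releasing peptide are co-transmitters that further divide these types.

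The deposited libraries held 40857358 to 65843658 UMIs. After filtering there were 8518 YAP5SA, 4890 Yap knockout and 6959 control cells, with medians of 5224.5, 4979.5 and 4900 UMIs. Barcode names were serial labels that repeat between libraries (2427 to 3448 names per library also occurred in another), so a shared name does not show a shared cell. Scrublet's own threshold called no doublet, and the cells with the top 6% of scores were removed instead. Yap1 stood at 55.4 CPM (UMIs of a gene per 10 to the power 6 UMIs of the sum) in YAP5SA, 22.6 in Yap knockout and 47.6 in control epithelium-like cells, which are named from fixed markers. In neuron-like cells backed by identity markers, defined next, it stood at 20.9 (12.2 to 33.5), 11.4 (8.68 to 14.8) and 26.4 CPM (18.7 to 36.2), so it was lower in Yap knockout than in control in both classes. In fibroblast-like cells it stood at 65.5, 63.6 (50.3 to 79.3) and 59.2 CPM (55.3 to 63.3), and the Yap knockout and control intervals overlapped. Whether these 3′ tags lie in the floxed part of Yap1 the sources used here do not say.

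The 6-gene rule kept 116 YAP5SA cells (1.36% of the library, 1.13 to 1.63), 886 Yap knockout cells (18.1%, 17.0 to 19.2) and 231 control cells (3.32%, 2.91 to 3.77). Not all of them carried the identity of an enteric neuron. A separate list that the rule does not use, which includes Phox2a, Ret, Hand2, Elavl3 and Prph, was the top-scoring cell type list in 78 YAP5SA, 448 Yap knockout and 127 control cells, called identity-backed here. The remaining 38, 438 and 104 cells had deeper libraries, with medians of 17293.5, 15969 and 16910 UMIs against 9906, 7947.5 and 8099 in the identity-backed cells. In those remaining cells the 6 neuronal genes summed to 704, 589 and 720 CPM, against 12029, 13071 and 11346 CPM in identity-backed cells. Most levels and cell counts below are therefore given for identity-backed cells, a subset chosen after seeing the data. The fits between cell groups, and the levels printed with them, are over all neuron-like cells unless identity-backed cells are named.

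The 5′ flanks of the genes are described first, apart from the counts. RefSeq windows (GRCm38.p6, the 250 bases before the annotated start) were held for 8 of the 10 genes. All were searched on both strands for TGACG, the core of the cyclic AMP response element, and for the full element TGACGTCA, which contains the core on each strand. The core occurred in 6 of 8 windows, those of Tac1, Vip, Nos1, Slc18a3, Chat and Cartpt, and in 17.8% of 32851 windows of all genes. Only the Cartpt window held the full element, against 1.55% of all windows, and the Gal and Npy windows held neither. The 6 windows below are shown because they belong to the better covered of the genes that separate the neuron types, and capitals mark the core on either strand, which the Gal window lacks. The Chat and Npy windows are not shown, since both genes gave few UMIs. A match is a description of letters and not a bound site.
Nos1: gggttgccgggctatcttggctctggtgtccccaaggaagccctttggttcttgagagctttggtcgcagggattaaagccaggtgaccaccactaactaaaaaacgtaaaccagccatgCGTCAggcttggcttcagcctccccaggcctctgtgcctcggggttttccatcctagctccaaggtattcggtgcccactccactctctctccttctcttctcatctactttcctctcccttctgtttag
Vip: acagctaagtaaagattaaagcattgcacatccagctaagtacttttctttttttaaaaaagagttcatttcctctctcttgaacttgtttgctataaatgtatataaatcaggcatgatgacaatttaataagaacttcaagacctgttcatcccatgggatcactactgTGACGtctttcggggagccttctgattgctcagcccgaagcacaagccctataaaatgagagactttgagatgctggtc
Gal: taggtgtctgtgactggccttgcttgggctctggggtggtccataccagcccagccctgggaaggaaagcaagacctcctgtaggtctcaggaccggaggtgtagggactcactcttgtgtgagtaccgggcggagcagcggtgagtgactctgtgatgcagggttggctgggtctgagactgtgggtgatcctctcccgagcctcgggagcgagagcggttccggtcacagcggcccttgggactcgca
Cartpt: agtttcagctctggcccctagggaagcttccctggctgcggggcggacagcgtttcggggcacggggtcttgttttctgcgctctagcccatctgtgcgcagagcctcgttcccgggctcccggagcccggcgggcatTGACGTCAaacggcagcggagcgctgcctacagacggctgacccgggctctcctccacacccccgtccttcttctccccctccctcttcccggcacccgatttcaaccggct
Tac1: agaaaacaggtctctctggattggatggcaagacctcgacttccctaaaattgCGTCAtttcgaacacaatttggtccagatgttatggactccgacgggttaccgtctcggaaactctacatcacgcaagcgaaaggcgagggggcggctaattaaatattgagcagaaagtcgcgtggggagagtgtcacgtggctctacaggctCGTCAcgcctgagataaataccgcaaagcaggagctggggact
Slc18a3: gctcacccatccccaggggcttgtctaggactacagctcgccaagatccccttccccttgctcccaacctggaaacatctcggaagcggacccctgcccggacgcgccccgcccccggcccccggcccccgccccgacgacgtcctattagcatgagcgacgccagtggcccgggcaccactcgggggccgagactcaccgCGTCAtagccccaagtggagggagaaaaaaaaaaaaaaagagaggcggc
The Nos1 window is chr5:117866589-117866838 on the plus strand, with its match 130 bases before the start. Vip is at chr10:5638968-5639217 on the plus strand, with the match at 79 bases, and Cartpt at chr13:99900684-99900933 on the minus strand, where the cores at 112 and 109 bases overlap in the full element. Gal is at chr19:3414545-3414794 on the minus strand. Tac1 is at chr6:7554811-7555060 on the plus strand, with matches at 197 and 43 bases, and Slc18a3 at chr14:32464851-32465100 on the minus strand, with the match at 49 bases. Slc18a3 lies within the Chat gene on the same strand, 1059 bases from the Chat start to its own, so reads of the pair may be hard to tell apart. Nos1 and Grp also overlap predicted genes in RefSeq.

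All 10 genes were first compared between neuron-like cells and the other cells of the same library, which asks whether they mark neurons at all in this tissue. UMIs were summed over cells, giving 3 pairs of sums, and tested with edgeR's quasi-likelihood test with library as a block and Benjamini-Hochberg adjustment over 22549 genes. Of the 10 genes, 8 were called higher in neuron-like cells and none lower, and 8.87% of all tested genes were called higher. In identity-backed cells 10 of 10 were called higher, where 17.0% of 20679 genes were. For Penk this direction did not hold in every library, as given below. The median log2 fold change of the 10 genes was 4.97 over all neuron-like cells, beside -0.08 over all genes tested.

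Cartpt, which encodes the CART peptide precursor, was the most abundant of the 10 in neuron-like cells, at 4045 CPM in YAP5SA, 2040 in Yap knockout and 2553 in control cells. In the other cells it stood at 19.2, 89.3 and 40.5 CPM. Its log2 fold change was 5.99 ± 0.57 (SE, 3 libraries, edgeR adjusted p = 0.00042), and the neuron-like value was above the value of the other cells in all 3 libraries. Gal (5.31 ± 0.37), Vip (5.18 ± 0.53), Slc18a3 (5.08 ± 0.43), Tac1 (5.02 ± 0.56), Grp (4.91 ± 0.68), Nos1 (4.89 ± 0.42) and Chat (3.90 ± 0.67) were called as well, as log2 fold changes with edgeR adjusted p from 0.00015 to 0.0059.

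Penk and Npy did not pass over all neuron-like cells. Penk, the enkephalin precursor, stood at 533 CPM in YAP5SA, 43.8 in Yap knockout and 97.6 in control neuron-like cells, against 83.1, 34.8 and 187 CPM in the other cells. It was higher in neuron-like cells of YAP5SA and Yap knockout and lower in those of the control, with a log2 fold change of 0.61 ± 0.57 (edgeR adjusted p = 0.55). Npy, neuropeptide Y, had a log2 fold change of 0.66 ± 0.33 (edgeR adjusted p = 0.24). In identity-backed cells both passed, Penk at 1.23 ± 0.35 (edgeR adjusted p = 0.0027) and Npy at 1.25 ± 0.34 (edgeR adjusted p = 0.0017), the smallest log2 fold changes of the 10. Penk there stood at 1036 CPM in YAP5SA, 73.7 in Yap knockout and 106 in control. It was thus still below the other cells in the control, and far above them only in YAP5SA.

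**Figure D1:**
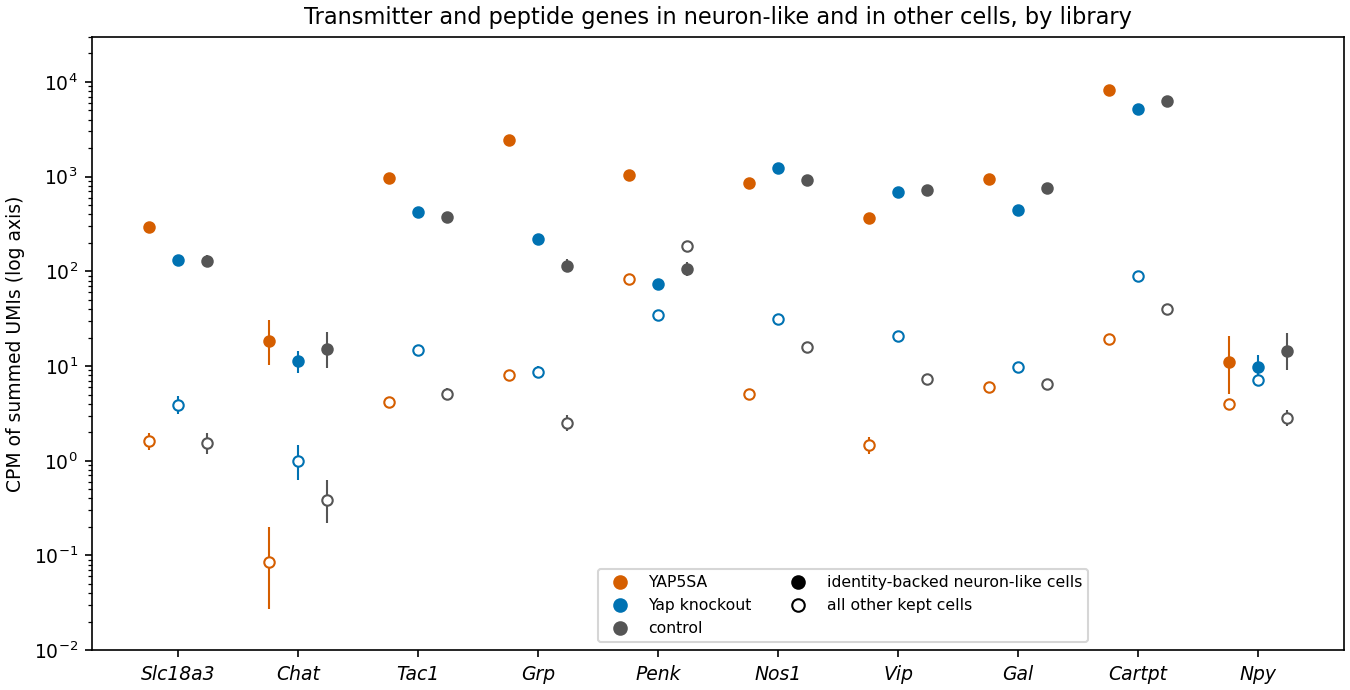
CPM of the 10 genes in identity-backed neuron-like cells (filled) and in all other kept cells (open) of each library, on a log axis, with exact Poisson 95% intervals that cover counting error only. Filled points lie above open points of the same library for every gene except Penk in the control, where 106 CPM stands below 187 CPM.

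Among the cholinergic genes, the vesicular acetylcholine transporter Slc18a3 was the better covered. It stood at 292 CPM (256 to 331) in YAP5SA, 132 (122 to 142) in Yap knockout and 129 (111 to 149) in control identity-backed cells. A UMI of Slc18a3 was found in 52.6%, 45.3% and 42.5% of those cells, against 1.13%, 2.25% and 0.922% of the other cells. YAP5SA was the high library, and the intervals of Yap knockout and control overlapped. Chat, choline acetyltransferase, gave 15, 57 and 22 UMIs in all, or 18.5, 11.2 and 15.3 CPM, and reached 12.8%, 8.93% and 14.2% of cells. The Chat intervals overlapped between the 3 libraries, and at this depth most Slc18a3-positive cells had no Chat UMI.

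Tac1, the precursor of substance P and neurokinin A, stood at 974 CPM (908 to 1045) in YAP5SA, 425 (407 to 443) in Yap knockout and 374 (343 to 407) in control identity-backed cells. Counted as cells with 5 or more UMIs, a rule chosen after seeing the data, 33.3% of YAP5SA cells (23.1 to 44.9), 19.9% of Yap knockout cells (16.3 to 23.9) and 18.9% of control cells (12.5 to 26.8) were rich in Tac1. Cells this rich were rare elsewhere, with 1, 7 and 3 cells outside the neuron-like set. YAP5SA was highest by both measures, and its share interval overlapped those of the other libraries. The rule of 5 UMIs is not scaled for depth, and identity-backed YAP5SA cells were deeper, with a median of 9906 UMIs against 7947.5 and 8099. The part of depth in this and the later shares of rich cells was not tested.

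Grp, gastrin-releasing peptide, stood at 2425 CPM (2319 to 2534) in YAP5SA, 221 (209 to 235) in Yap knockout and 115 (97.8 to 134) in control cells. It came from few cells. Those with 5 or more UMIs were 13 of 78 in YAP5SA, 27 of 448 in Yap knockout and 5 of 127 in control, or 16.7% (9.18 to 26.8), 6.03% (4.01 to 8.65) and 3.94% (1.29 to 8.95). The 3 richest cells held 80.0%, 31.5% and 81.8% of the Grp UMIs, with 574, 527 and 476 UMIs each in YAP5SA, 136, 122 and 96 in Yap knockout and 51, 49 and 35 in control. Both the share of rich cells and the UMIs in the richest of them were thus highest in YAP5SA.

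Penk stood at 1036 CPM (967 to 1108) in YAP5SA, 73.7 (66.4 to 81.5) in Yap knockout and 106 (90.1 to 125) in control identity-backed cells. Rich cells were 16.7% (9.18 to 26.8), 3.79% (2.23 to 6.01) and 6.30% (2.76 to 12). The 3 richest cells held 74.3%, 41.2% and 41.2% of the UMIs, with 370, 160 and 96 UMIs in YAP5SA, 63, 48 and 43 in Yap knockout and 28, 18 and 17 in control. In YAP5SA the Penk-rich cells were partly the Grp-rich ones. The cell with 527 Grp UMIs held 160 of Penk, 46 of Tac1 and 0 of Nos1, and the cell with 574 Grp UMIs held 96 of Penk, 26 of Tac1 and 22 of Nos1.

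Nos1, neuronal nitric oxide synthase, was the most even of the abundant genes. It stood at 859 CPM (796 to 925) in YAP5SA, 1228 (1198 to 1259) in Yap knockout and 930 (881 to 981) in control cells. Nos1-rich cells were 32.1% (21.9 to 43.6), 35.3% (30.8 to 39.9) and 32.3% (24.3 to 41.2). Yap knockout had the highest level, YAP5SA and control overlapped in level, and all 3 share intervals overlapped. Outside the neuron-like set 0, 0 and 2 cells were Nos1-rich, while a single Nos1 UMI was found in 3.42%, 16.0% and 8.93% of those cells.

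Vip, vasoactive intestinal peptide, stood at 369 CPM (328 to 413) in YAP5SA, 681 (658 to 704) in Yap knockout and 717 (674 to 762) in control cells, and rich cells were 16.7%, 20.8% and 15.7%. The level was lowest in YAP5SA while the share of rich cells was not, with intervals of 9.18 to 26.8, 17.1 to 24.8 and 9.89 to 23.3. The richest control cell held 438 Vip UMIs, and the 3 richest held 70.5% of the control total, against 58.3% in YAP5SA and 30.8% in Yap knockout. Those 3 control cells held 107, 103 and 44 Nos1 UMIs and 1378, 1345 and 459 Cartpt UMIs.

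Gal, galanin, stood at 947 CPM (881 to 1017) in YAP5SA, 440 (422 to 458) in Yap knockout and 758 (714 to 804) in control cells, with rich cells at 32.1%, 22.3% and 22.8%. Cartpt stood at 8159, 5154 and 6255 CPM, with rich cells at 33.3%, 37.3% and 27.6%. Yap knockout was lowest in level for both peptides, and the share intervals of each gene overlapped between libraries. Without the 3 richest cells of each library Cartpt in Yap knockout was 1.15 times control, against 0.824 times with them, while Gal was at 0.703 against 0.58 times. Npy was scarce in these cells, at 11.1 (5.06 to 21.0), 9.85 (7.31 to 13.0) and 14.6 CPM (9.03 to 22.3), from 5, 11 and 4 cells.

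**Figure D2:**
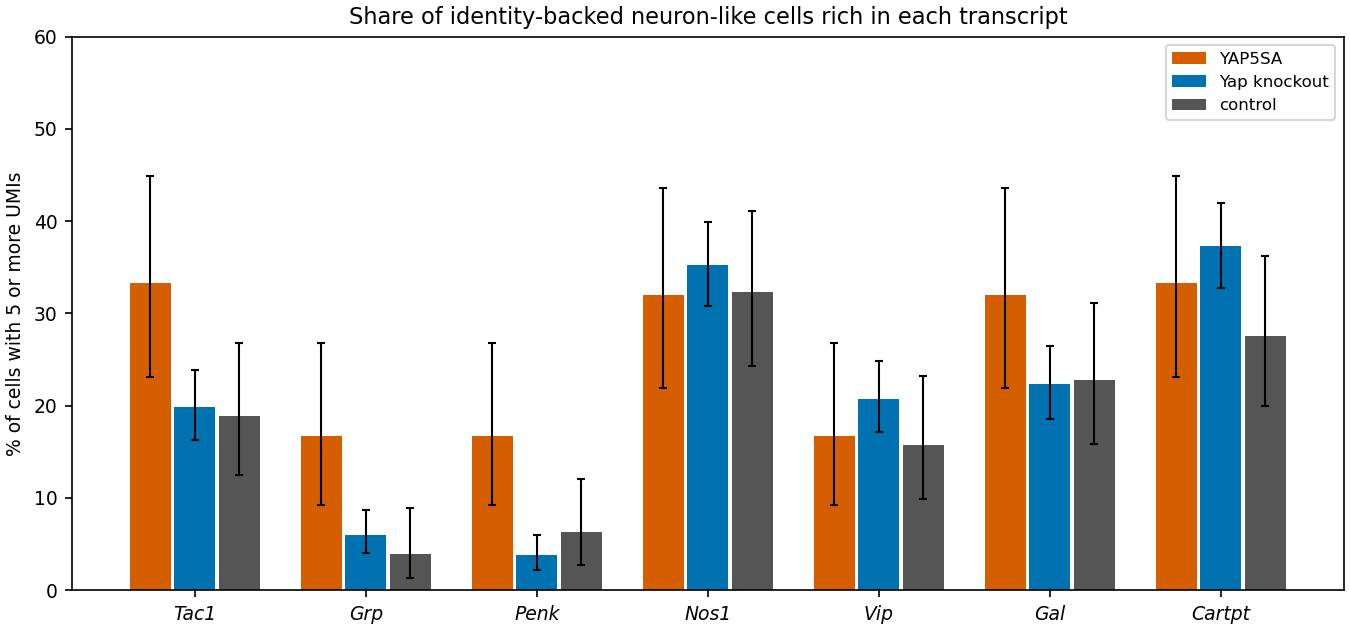
Percent of identity-backed neuron-like cells with 5 or more UMIs of each gene in YAP5SA (78 cells), Yap knockout (448) and control (127), with exact Clopper-Pearson 95% intervals that cover counting error only. Shares are not scaled for depth. The tallest YAP5SA bars relative to control are those of Grp (16.7% against 3.94%) and Penk (16.7% against 6.30%), and the Nos1 bars lie between 32.1% and 35.3%.

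The next question was which of the 10 genes share a cell. A cell was counted for a gene at 5 or more UMIs, or at 1 for the scarcer Slc18a3, Chat and Npy, and the number of cells with both was set against the product of the 2 shares. The genes fell into 2 sets, which were drawn after seeing the data. Within Nos1, Vip, Gal, Cartpt and Npy, 10 of 10 pairs occurred together more often than the product in all 3 libraries. Within Tac1, Slc18a3, Chat, Grp and Penk, 9 of 10 did, the exception being Chat with Penk. Between the sets 0 of 25 pairs did so, and 20 of 25 were below the product in all 3 libraries. Only 13 of these 25 pairs had a product of 2 or more cells, and 12 of the 13 were below it. With identity-backed cells thinned to 2000 UMIs and counted at 1 UMI, 6 of 10 and 5 of 10 pairs within the sets were above the product in all 3 libraries, as was 1 of 25 between them, and 16 of 25 were below. Counted at 1 UMI without thinning, 5 of 25 pairs between the sets were above and 12 below. Counted at 1 UMI over all neuron-like cells, 19 of the 45 pairs were above the product in all 3 libraries and 7 below.

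Single pairs show how sharp the split was. Nos1-rich cells that were also Gal-rich numbered 22 of 25 in YAP5SA, 96 of 158 in Yap knockout and 26 of 41 in control, against 8.01, 35.3 and 9.36 from the product. Of Vip-rich cells, 12 of 13, 71 of 93 and 16 of 20 were Nos1-rich. All cells with a Npy UMI, 5, 11 and 4, were rich in both Nos1 and Cartpt. These are the cells that carry the inhibitory labels.

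On the other side, 26 of 26 Tac1-rich YAP5SA cells, 81 of 89 Yap knockout cells and 22 of 24 control cells had a Slc18a3 UMI. Grp-rich cells were also Tac1-rich in 12 of 13, 20 of 27 and 5 of 5 cases, and Penk-rich cells in 11 of 13, 10 of 17 and 7 of 8. Most Grp-rich and Penk-rich cells were thus Tac1-rich in each library, but not all. In Yap knockout a cell with 96 Grp UMIs held 1 of Tac1, and a cell with 43 Penk UMIs held 0. Tac1 and Nos1 were rarely rich in the same cell, with 1, 7 and 2 such cells against 8.33, 31.4 and 7.75 from the product. Some Grp-rich cells were also Cartpt-rich, 4 of 13 in YAP5SA, 8 of 27 in Yap knockout and 1 of 5 in control.

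Sorted by these labels, cholinergic cells (a UMI of Slc18a3 or Chat) were 53.8% of identity-backed YAP5SA cells (42.2 to 65.2), 47.3% of Yap knockout cells (42.6 to 52.1) and 45.7% of control cells (36.8 to 54.7). Nos1-rich cells that were also cholinergic were 2, 18 and 4, or 2.56%, 4.02% and 3.15%. Cells with neither label were 16.7% (9.18 to 26.8), 21.4% (17.7 to 25.5) and 25.2% (17.9 to 33.7). The intervals of each class overlapped between the 3 libraries, so a difference in the mix of nitrergic and cholinergic cells was not detectable at this depth.

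**Figure D3:**
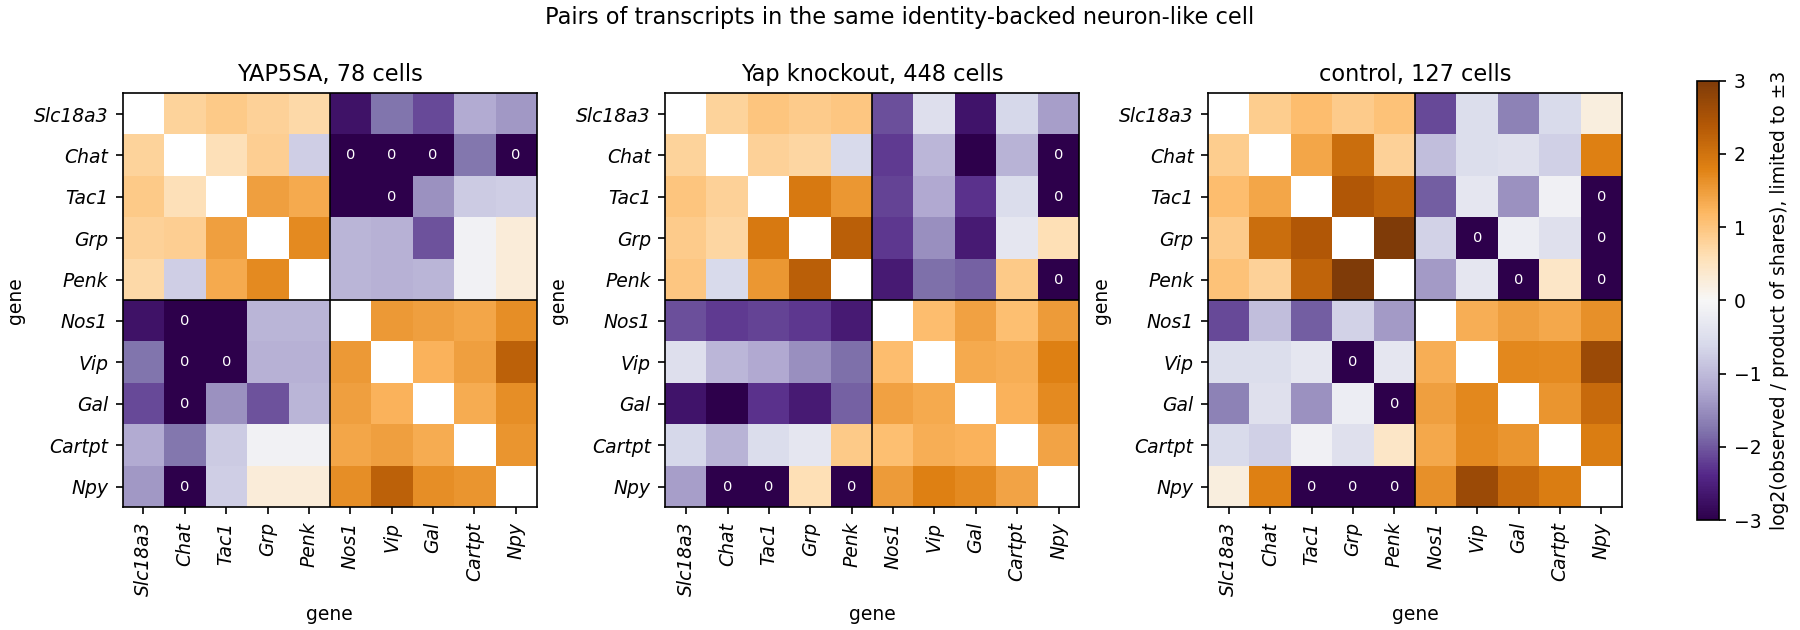
Log2 of the cells with both genes over the product of the 2 shares, for each pair of the 10 genes in identity-backed cells of YAP5SA (78 cells), Yap knockout (448) and control (127). Orange marks pairs found together more often than the product, purple less often, and 0 marks pairs with no shared cell; the upper left and lower right blocks, Slc18a3 to Penk and Nos1 to Npy, are orange in all but a few squares.

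The size of the split was then measured across libraries. The sets had been drawn after seeing which of these genes shared a cell in the same libraries. The calls and p-values below therefore describe the split, and are not an independent test of it. Neuron-like cells with a UMI of Nos1 (34 in YAP5SA, 398 in Yap knockout and 78 in control) were set against cholinergic cells with none (38, 167 and 56), in the same kind of edgeR fit over 10403 genes. Of these, 28, 236 and 50 Nos1-positive and 37, 142 and 50 cholinergic cells were identity-backed. Nos1, Chat and Slc18a3 define the groups and are not read. Of the other 7 genes, 6 had enough UMIs to be tested and all 6 were called. Vip, Gal and Cartpt were higher in Nos1-positive cells, where 5.96% of tested genes were called higher, and Tac1, Grp and Penk were lower, where 4.53% were called lower.

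Gal stood at 1455 CPM in Nos1-positive YAP5SA cells, 307 in those of Yap knockout and 745 in those of control, against 94.9, 15.2 and 20.4 CPM in cholinergic cells, a log2 fold change of 4.51 ± 0.19 (SE, 3 libraries, edgeR adjusted p = 7.2e-07). Cartpt stood at 12728, 3556 and 6319 CPM against 364, 310 and 413 CPM, a log2 fold change of 4.31 ± 0.25 (edgeR adjusted p = 5.0e-06). Vip stood at 537, 467 and 707 CPM against 49.6, 50.0 and 71.3 CPM, a log2 fold change of 3.44 ± 0.13 (edgeR adjusted p = 2.6e-07). The groups did not overlap for any of these 3 peptides.

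Tac1 stood at 163 CPM in Nos1-positive YAP5SA cells, 115 in those of Yap knockout and 62.3 in those of control, against 1488, 724 and 751 CPM in cholinergic cells, and fell by 2.96 ± 0.16 on the log2 scale (edgeR adjusted p = 2.8e-06). Grp stood at 1265, 65.1 and 42.9 CPM against 2860, 370 and 187 CPM and fell by 1.77 ± 0.21 (edgeR adjusted p = 7.0e-04). Penk stood at 296, 41.7 and 59.4 CPM against 1473, 81.5 and 204 CPM and fell by 1.56 ± 0.21 (edgeR adjusted p = 0.0014). Within each library the Nos1-positive value of these 3 genes was the lower, although Grp and Penk differed more between libraries than between the cell groups. Without the library term Grp (edgeR adjusted p = 0.74) and Penk (edgeR adjusted p = 0.41) were not called.

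Npy was left out of that fit by the filter on low counts, at 17.6, 9.94 and 17.9 CPM in Nos1-positive cells against 0, 0 and 3.40 CPM in cholinergic cells. In identity-backed cells the same 6 genes were called in the same directions, with Gal at 5.06 and Tac1 at -2.38 as log2 fold changes; there 2.64% of 8456 genes were called higher and 2.52% lower. Epithelial markers moved with the comparison over all neuron-like cells, summing over 6 genes to 3588, 2523 and 714 CPM in Nos1-positive cells against 748, 719 and 180 CPM in cholinergic cells. Sums of other lists moved as well. Erythroid markers summed to 31756, 2995 and 55593 CPM against 5053, 10978 and 7784 CPM, smooth muscle markers to 1572, 7051 and 8538 against 1471, 5007 and 2562 CPM, and endothelial markers to 394, 297 and 809 against 278, 161 and 93.4 CPM. The neuron identity list was lower in Nos1-positive cells, at 2494, 2110 and 1999 against 4620, 3941 and 4014 CPM. In identity-backed cells the epithelial sums were 956, 462 and 142 against 639, 239 and 187 CPM, and the neuron identity sums 3654, 4418 and 3566 against 5029, 4984 and 4327 CPM. There the log2 fold changes of Gal, Cartpt and Vip were larger, at 5.06, 4.89 and 4.09. Those of Tac1, Grp and Penk were smaller in size, at -2.38, -1.23 and -1.45.

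**Figure D4:**
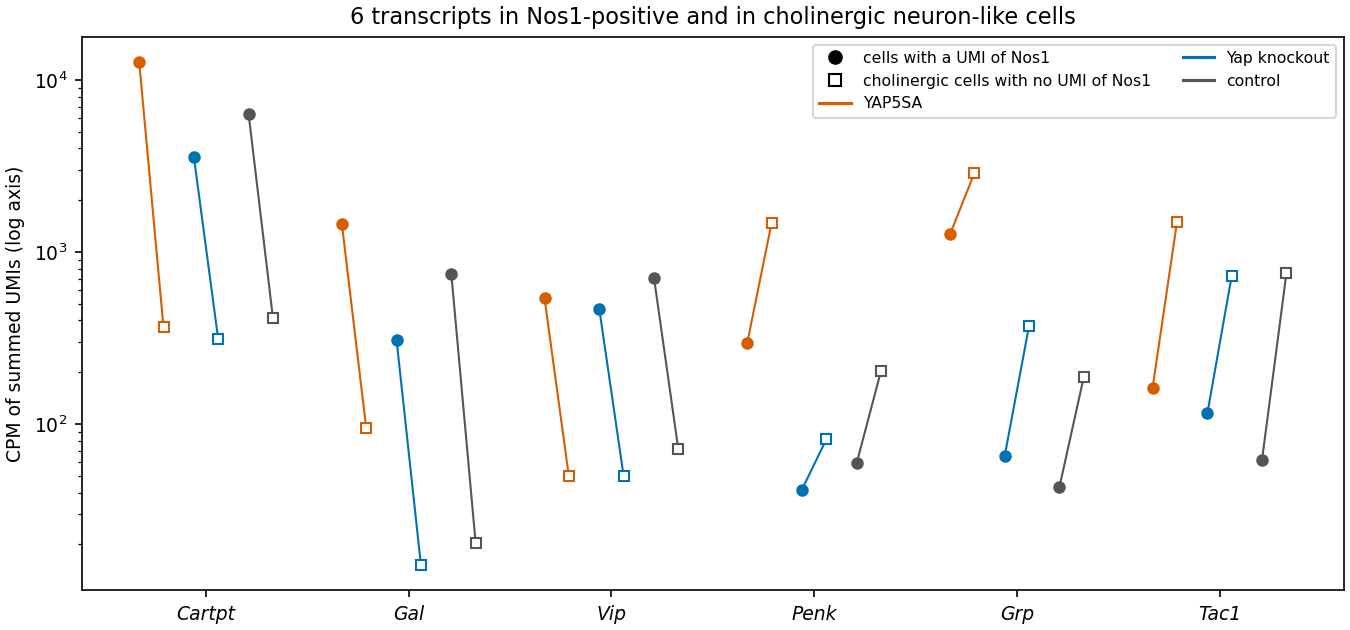
CPM of 6 genes in neuron-like cells with a UMI of Nos1 (filled circles) and in cholinergic cells with none (open squares), joined within each library, on a log axis. Lines for Cartpt, Gal and Vip descend and those for Penk, Grp and Tac1 ascend in all 3 libraries.

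Other genes separated the same cells. In identity-backed cells the leading genes beside the transmitters in Nos1-positive cells were Gng8, a G protein subunit, Tesc, a calcium-binding protein, S100a13, and Ass1, the enzyme that recycles citrulline to arginine, the substrate of nitric oxide synthase. Ass1 stood at 1242, 757 and 1272 CPM against 103, 44.0 and 49.6 CPM in cholinergic cells, a log2 fold change of 4.15 ± 0.15 (edgeR adjusted p = 2.2e-12). Slc7a3, a cationic amino acid transporter that carries arginine, had a log2 fold change of 3.28 ± 0.45 (edgeR adjusted p = 0.00013). Lowest were Dmkn, the receptor phosphatase Ptprt, the glutamate receptor partner Shisa6, and Colq, the collagen tail that anchors acetylcholinesterase. Colq fell by 2.48 ± 0.25 (edgeR adjusted p = 3.6e-06), at 11.7, 12.4 and 10.6 CPM against 65.7, 79.3 and 45.8 CPM.

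Transcription factors known from enteric neurons also differed between these cells. Of 24 tested in identity-backed cells, 3 were higher in Nos1-positive cells (Etv1 at a log2 fold change of 2.62, Tbx3 at 2.29 and Ebf1 at 2.24, each called by edgeR) and 11 were lower, among them Casz1 at -1.99, Bnc2 at -1.86 and Phox2a at -0.73. Over all genes tested there, 2.64% were higher and 2.52% lower, and Phox2a belongs to the identity list whose sum was lower in Nos1-positive cells. Over all neuron-like cells the counts were 4 higher and 13 lower of 24, beside 5.96% and 4.53% of all genes. Of 12 peptide processing genes tested, 2 were higher and 2 lower in identity-backed cells, and 0 higher and 7 lower over all neuron-like cells. The granule protein Chgb was lower in both, at log2 fold changes of -0.97 and -1.51. The nerve choline transporter Slc5a7 fell by 1.06 over all neuron-like cells (edgeR adjusted p = 0.014) and stood at -0.47 in identity-backed cells (edgeR adjusted p = 0.32).

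Likeness from cell to cell was ranked by the lowest of the 3 libraries' correlations. Over neuron-like cells, Nos1 was by that rule most like Gal (Pearson's r of 0.87 in 116 YAP5SA, 0.82 in 886 Yap knockout and 0.81 in 231 control cells), then with Ass1 (0.78, 0.78 and 0.81) and Cartpt (0.85, 0.76 and 0.78), among 12328 genes. Within a library the order differed, since Tesc reached 0.88 in YAP5SA and 0.82 in control, and Ass1 was first by the rule in identity-backed cells. Tac1 was most like Slc18a3 (0.63, 0.54 and 0.55) and the neuronal filament gene Prph (0.59, 0.51 and 0.61), and Grp most like Tac1 (0.50, 0.42 and 0.40), although Rprm was closer to Grp in Yap knockout (0.51) and control (0.56). Chat (highest with Ptprt, 0.48, 0.30 and 0.39) and Penk (0.25, 0.39 and 0.31 with its closest gene) had only weak correlations. Cells of a library share its depth and free RNA, so these values are descriptions.

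Between genotypes, the study asks how the hindstomach differs with YAP activity, and Shh-Cre is not known to act in enteric neurons. Yap1 in identity-backed cells was lower in Yap knockout than in control, as given above, from 58 and 38 UMIs. The part of RNA from other cells in that Yap1 difference was not tested. In YAP5SA neuron-like cells 4 of the 8 genes at 20 CPM or more stood at least 2-fold above control and 0 at least 2-fold below, where 3.68% of 8038 genes stood above and 3.56% below. They were Grp, Penk, Tac1 and Slc18a3, each from the cholinergic set, whose other gene, Chat, lay below 20 CPM. In identity-backed cells the same 4 genes stood above and 0 below, against 2.42% and 3.71% of 7947 genes. Over all neuron-like cells the median log2 ratio was 0.98 for the 8 genes and 0.06 for all genes at that level.

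The ratios of YAP5SA over control in identity-backed cells were 21.2 (18.0 to 25.0) for Grp, 9.75 (8.20 to 11.7) for Penk, 2.61 (2.33 to 2.91) for Tac1 and 2.26 (1.85 to 2.75) for Slc18a3. Of the nitrergic set, Cartpt was at 1.30, Gal at 1.25 and Nos1 at 0.92, closer to control than those 4 genes, while Vip was at 0.51 (0.451 to 0.586). The scarce Chat and Npy were at 1.21 (0.583 to 2.44) and 0.759 (0.306 to 1.73). Grp was at 23.4-fold with the 3 richest cells of each library left out, while Penk came to 4.45-fold, an alternative chosen after seeing the data. In the control those 3 cells held 51, 49 and 35 of 165 Grp UMIs, so that Grp ratio rests on few control UMIs. Over all neuron-like cells the Grp ratio was 23.5 (20.2 to 27.5) and the Penk ratio 5.46 (4.82 to 6.20). Without the 3 richest cells they were 18.6 for Grp and 1.99 for Penk.

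Other measures moved with these ratios. Epithelial markers summed to 776 CPM in YAP5SA, 382 in Yap knockout and 163 in control identity-backed cells, and 56 of 78, 100 of 448 and 15 of 127 of these cells had 3 or more of the 6 markers. With such cells removed from all neuron-like cells, 26 of 116 YAP5SA cells remained and Penk was at 0.109 of control. Of the 9 genes at 20 CPM or more there, 4 stood at least 2-fold above control and 1 at least 2-fold below. Grp in the other cells was also 3.21-fold higher in YAP5SA (2.59 to 4.0), at 8.10 against 2.52 CPM. Its level in identity-backed cells was 2425 CPM against 115. The part of foreign RNA in the neuron values was not tested.

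In Yap knockout neuron-like cells, 1 of 8 genes was at least 2-fold below control and 0 above, where 3.02% of 8055 genes stood below and 3.76% above. It was Penk, 2.23-fold lower (1.95 to 2.55). In identity-backed cells 0 of 8 passed in either direction, against 2.01% of 7908 genes higher and 4.05% lower. There Penk was 1.44-fold lower (1.19 to 1.75), Gal 1.72-fold lower (1.60 to 1.85), Grp 1.93-fold higher (1.64 to 2.29) and Nos1 1.32-fold higher (1.24 to 1.40). Fibroblast markers, from cells that also carry Penk, summed to 2925 CPM in YAP5SA, 852 in Yap knockout and 6736 in control identity-backed cells, and their part in the Penk values was not tested. With the 3 richest cells left out, Grp was 7.03-fold and Vip 2.05-fold higher in identity-backed Yap knockout cells. The 3 richest cells had held 81.8% of the Grp and 70.5% of the Vip UMIs of the control.

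Penk, Npy and Grp were not confined to neurons. Penk stood at 261 CPM in YAP5SA, 167 in Yap knockout and 367 in control fibroblast-like cells, and at 142, 84.4 and 252 CPM in pericyte-like cells. In the control, both classes stood above identity-backed neuron-like cells at 106 CPM. Penk in fibroblast-like cells was 1.41-fold lower in YAP5SA (1.34 to 1.48) and 2.19-fold lower in Yap knockout (1.91 to 2.53) than in control.

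Npy was highest in enteric glia-like cells, the support cells of the ganglia, at 126 CPM in YAP5SA, 63.3 in Yap knockout and 41.6 in control, against 11.1, 9.85 and 14.6 CPM in identity-backed neuron-like cells. It was found in 20.9%, 17.9% and 12.5% of glia-like cells and was 3.02-fold (2.22 to 4.15) above control in those of YAP5SA. Grp stood at 18.9, 20.7 and 21.0 CPM in endothelium-like cells, level across the 3 libraries, and at 7.36, 3.22 and 1.95 CPM in fibroblast-like cells. The endothelial value did not follow that of identity-backed neuron-like cells, which was 2425, 221 and 115 CPM. Cartpt, Vip and Nos1 gave low levels in the larger other classes that were close to each other within a library. Cartpt in fibroblast-like, smooth muscle-like and immune-like cells, for example, stood at 19.5, 20.4 and 23.1 CPM in YAP5SA, 79.7, 74.8 and 87.4 in Yap knockout and 41.1, 36.5 and 39.6 in control.

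**Figure D5:**
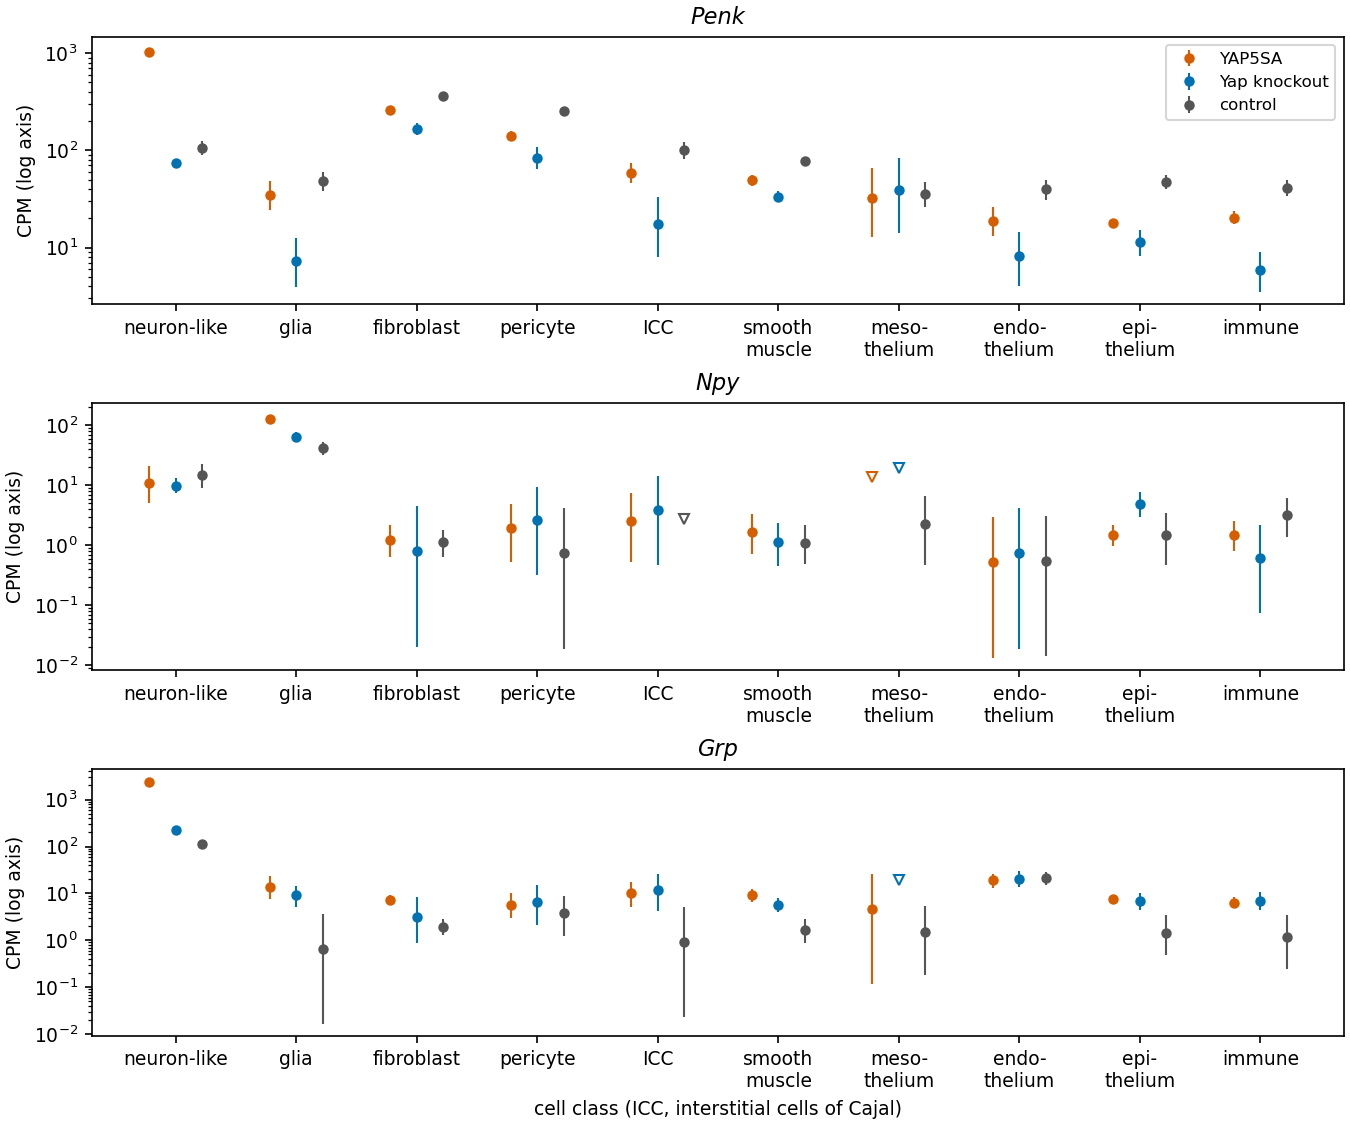
CPM of Penk, Npy and Grp in 10 cell classes of each library, on a log axis, with exact Poisson 95% intervals that cover counting error only. Triangles mark classes with 0 UMIs at the level of 3 counts. In control cells Penk is highest in fibroblast-like cells (367 CPM), Npy in glia-like cells (41.6 CPM) and Grp in identity-backed neuron-like cells (115 CPM).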

How the data were processed

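The deposited values are whole-number UMI counts per gene and cell, not normalised. PISA 1.0 wrote them, per the file headers, and the submitters' processing notes name STAR and GRCm39. A correction for free RNA is not stated. No deposited cell had fewer than 1000 UMIs. Cells with at least 500 genes and at most 20% mitochondrial UMIs were kept, and the top 6% of Scrublet scores (scanpy 1.11.5, expected rate 0.06) were removed, 511 YAP5SA, 311 Yap knockout and 413 control cells.

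Cell classes were scored per cell from fixed marker lists (mean z score of log-scaled counts; score at least 0.5, a gap of 0.25 to the next list and 3 markers detected). UMIs were summed per class and scaled to CPM. A 3′ tag counts each transcript once, so CPM is not scaled by gene length. Intervals are exact 95% Poisson, conditional ratio and Clopper-Pearson intervals, for counting error only. Differences between cell groups were tested on sums with edgeR 4.0.16 (quasi-likelihood, TMM, library block, Benjamini-Hochberg over all genes, threshold 0.05), checked on simulated counts first. The SE and p-values rest on the spread between 3 libraries of different genotype. edgeR moderates that spread toward the spread of all genes tested, so they do not measure the spread of each gene alone. The software was Python 3.11.15, numpy 2.4.6, pandas 2.3.3, scipy 1.17.1, matplotlib 3.10.9, R 4.3.3 and, as an alternative, DESeq2 1.42.0.

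The genes and lists were chosen with earlier results of these data known. Every one of the 10 genes is named; from other lists, up to 2 genes at each end of the ratios to control, from each fit the 10 highest and 10 lowest called genes, and for each gene the 3 most correlated. Genes of the lists named for their place in a fit or class were chosen after their values were seen. Alternatives were other gates, thinning to 2000 UMIs, marker-based removals, doublets kept, TMM factors, no filter, no block and leaving out each library.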

Additional observations from a re-analysis of the deposited data

Results flagged for a closer look

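Penk and Npy stood above the other cells in the neuron-like cells of some libraries and below them in others, and these differences between genotypes were not tested, since each has 1 library. Penk in all neuron-like cells was 6.41 times its level in the other cells of YAP5SA, 1.26 times that of Yap knockout and 0.521 times that of control. Its levels were 533 against 83.1 CPM, 43.8 against 34.8 CPM and 97.6 against 187 CPM. The 3 richest cells held 71.1% of the Penk UMIs of the YAP5SA neuron-like cells. Npy was 2.12 times its level in the other cells of YAP5SA, 0.903 times that of Yap knockout and 2.86 times that of control. In Yap knockout its levels were 6.48 CPM (5.18 to 8.0) in neuron-like and 7.18 CPM (6.13 to 8.35) in other cells, and these intervals overlap.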

How the results depend on the processing

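The count of 10 genes called in neuron-like against other cells was 8, and 8 to 9 with 1 library left out. Penk in that fit was at -0.32 on the log2 scale without YAP5SA replicate 1 and at 1.44, and called, without control replicate 1. The count called between Nos1-positive and cholinergic cells was 6, and 6 to 7 with 1 library left out; it was 4 without the library block. Genes called overall were 3676 in the first fit, against 1037 with no block, 5843 with a gate of 5 and 8301 in identity-backed cells. In the second fit they were 1091, against 435 by DESeq2, 1640 with no filter, 122 with no block, 656 without the control library, 567 without the Yap knockout library, 676 with doublets kept, 1805 with a gate of 3, 460 with a gate of 5, 436 in identity-backed cells and 636 there with 5 UMIs of Nos1. The count of genes 2-fold apart in YAP5SA was 4, all higher; it was 7 without cells with 3 or more fibroblast markers, 3 higher and 4 lower, which left 11 YAP5SA and 8 control cells. A gate of 3 gave 2 higher and 1 lower, and the mean of per-cell CPM 6 higher. Without cells with 3 or more epithelial markers, 4 genes were higher and 1 lower in YAP5SA, with Penk at 0.109 of control. The count for Yap knockout was 1; it was 2 with a gate of 3, without cells with glial markers and by the mean of per-cell CPM, 6 without cells with fibroblast markers, 3 without the 3 richest cells, and 0 with a gate of 5 and in identity-backed cells. Pairs below the product numbered 7, and 15 when thinned, 13 with a gate of 5, 12 in identity-backed cells and 13 at 5 UMIs; pairs above numbered 17 to 24 against 19, and 12 with identity-backed cells thinned. Of the log2 fold changes of single genes, 157 kept direction and call, 6 were newly called, 2 lost the call and 1 turned; of the ratios to control, 153 stayed within the counting interval, 118 did not, and 1 that was at least 2-fold crossed 1. Smaller ratios crossed 1 too: without the 3 richest cells, Yap knockout over control was 2.04 for Vip, 1.17 for Cartpt and 1.43 for Npy, against 0.922, 0.799 and 0.798. Where a value moved, the cause was not tested. All 10 genes had a larger share of cells with a UMI in neuron-like than in other cells of every library, and 8 when thinned. The neuron-like share of cells ranged with the gate from 0.657% to 3.85% in YAP5SA, 5.60% to 31.6% in Yap knockout and 1.22% to 8.08% in control, and Yap knockout was highest in each setting. Chat and Npy rest on 15 to 57 and 9 to 50 UMIs in identity-backed cells, which limits any comparison of them. No paired analysis between genotypes was possible because each genotype has 1 library and the libraries share only the replicate number 1.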

Other observations

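Of 13 genes for peptide processing and granules, 12 were called higher in neuron-like than in other cells and 0 lower (edgeR, 3 libraries), beside 8.87% of all genes called higher. Pcsk1n, the granin-like inhibitor of prohormone convertase 1, stood at 2517 CPM in YAP5SA, 1936 in Yap knockout and 2082 in control identity-backed cells. Pam, the amidating enzyme of peptides such as Vip, was the gene not called, at a log2 fold change of 0.29 ± 0.17 (edgeR adjusted p = 0.32). Cpe, a carboxypeptidase, stood at 215, 246 and 228 CPM in identity-backed cells against 248, 259 and 235 CPM in cells like interstitial cells of Cajal. Vgf, a granule protein, stood at 296, 140 and 143 CPM in identity-backed cells and was 2.07-fold (1.71 to 2.51) higher in YAP5SA than in control.

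Receptors lay partly in other classes. The nicotinic subunits Chrna3 (127, 146 and 140 CPM) and Chrnb4 (92.3, 83.1 and 79.9 CPM) were highest in identity-backed neuron-like cells. The muscarinic receptor Chrm2 was highest in smooth muscle-like cells, at 141, 241 and 209 CPM, and Chrm3 in cells like interstitial cells of Cajal, at 269, 634 and 443 CPM. Tacr1, the substance P receptor, was highest in smooth muscle-like cells at 32.2, 71.1 and 20.4 CPM, and Gucy1a1, a subunit of the enzyme that senses nitric oxide, in pericyte-like cells at 57.4, 103 and 69.8 CPM. Each of these 4 genes was highest in the same class in every library. Mast-like, enteroendocrine-like, mesothelium-like and unassigned cells were left out of this ranking.

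Among genes of the other small transmitters and peptides, Th, the enzyme of catecholamine synthesis, stood at 97.2 CPM in YAP5SA and 15.3 in control identity-backed cells, a ratio of 6.36 (3.92 to 10.7) from 79 and 22 UMIs. Slc5a7 stood at 49.2 CPM in YAP5SA, 53.0 in Yap knockout and 18.8 in control, 2.62-fold (1.57 to 4.45) and 2.83-fold (1.90 to 4.37) above control. Cck, cholecystokinin, had 0 UMIs in YAP5SA, 20 in Yap knockout and 31 in control identity-backed cells. These 3 genes were named by the rule on highest and lowest ratios, and no test between genotypes was possible.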
